A study of Mus musculus with 96 samples.

Results

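The 9 genes of the methionine cycle and of phosphatidylcholine synthesis were followed through 96 RNA libraries of mouse hepatocytes and liver macrophages. They were Bhmt, Mtr, Mat1a, Gnmt, Ahcy, Cbs, Pemt, Chka and Pcyt1a, that is 9 of the 25095 gene symbols in each table, and they were chosen by name. The choice was made with earlier results of these data known. Where a gene had several transcripts, the one with the highest mean in a table stood for it. All 9 passed the filter on low values (at least 3 libraries over 5 RPKTM) in every table.

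The methionine cycle turns methionine into S-adenosylmethionine, the methyl donor of the cell, and regenerates methionine from homocysteine. Mat1a makes S-adenosylmethionine in the adult liver, Gnmt uses it to methylate glycine, and Ahcy hydrolyses the S-adenosylhomocysteine left by every methyl transfer. Homocysteine is methylated again by Bhmt, with betaine from choline, or by Mtr, with methylfolate, or leaves the cycle through Cbs, the first enzyme of transsulfuration. Phosphatidylcholine is made in the liver from choline, by Chka (choline kinase alpha) and then Pcyt1a (which activates phosphocholine with CTP), or from phosphatidylethanolamine by Pemt, a large consumer of S-adenosylmethionine. The lipid is needed for very low density lipoprotein and bile.

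The mice were males of the C57BL/6J strain kept for 4 weeks on a diet rich in fat and sucrose. Control animals carried the floxed alleles and were given an adeno-associated virus with GFP under the TBG promoter, which is active in hepatocytes. The same virus type with Cre was used for RevDKO (both REV-ERB genes, Nr1d1 and Nr1d2), RevScapTKO (these 2 genes and Scap) and ScapKO (Scap alone). REV-ERBα and REV-ERBβ are repressors of the circadian clock, and SCAP escorts the SREBP factors of lipid synthesis to the site of their activation. Deletion was thus made in adult hepatocytes, and the macrophages of these livers were not themselves targeted. Cells were taken at zeitgeber time (ZT, hours after lights on, lights off at ZT12) 4, 10, 16 and 22, giving 32 groups of 3 libraries. Values are RPKTM (10 times RPKM, reads per kilobase scaled to library size), quantile normalised by the authors within each of 4 tables. The 36 libraries of Control, RevDKO and RevScapTKO shared a table for each cell type, and the ScapKO libraries (12 per cell type) stood in tables of their own, so that ScapKO values can be read only within themselves.

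The targeted genes and cell markers were examined first. Scap followed its label, at 495 ± 73.1 RPKTM for Control, 536 ± 109 for RevDKO and 209 ± 63.5 for RevScapTKO hepatocytes (SD, n = 12), with every RevScapTKO library below every other. In ScapKO hepatocytes, which have no Control in their table, Scap stood at 382 ± 202 RPKTM, with 205 to 380 in 11 libraries and 1006 in ZT22 replicate 2, the library also highest there in macrophage markers. Nr1d1 was not lower in the libraries labelled RevDKO (138 ± 108 RPKTM against 90.7 ± 119 in Control), and neither was Nr1d2 (312 ± 116 against 228 ± 141). The paper, in its own plot of relative mRNA expression, reports both genes as markedly reduced in hepatocytes. Whether the exons counted here lie in the deleted part is not known. All 9 hepatocyte markers that could be matched were present in hepatocytes, but the summed level of 14 macrophage markers in those libraries had a median of 1009 RPKTM for Control, 1248 for RevDKO and 3308 for RevScapTKO, with ranges of 279 to 3584, 475 to 2768 and 1087 to 7132. Conversely, the macrophage libraries held hepatocyte transcripts, with a summed marker level of 32449 to 105580 RPKTM in 33 of 36 libraries and 818624 to 1625530 in the other 3. In ScapKO hepatocytes, titles say hepatocyte while the cell type field says macrophage. Titles were followed, and the sum of the hepatocyte markers there was 363303 to 1162280 RPKTM against 565 to 3923 for the macrophage markers. A ScapKO library, ZT16 replicate 3, held 130 RPKTM of Xist, against at most 14.96 in the other 11, with the Y-linked Ddx3y at 475 RPKTM.

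Chka and Cbs, whose transcripts moved together between genotypes, and Gnmt and Pcyt1a, whose windows held a match to the sterol response element searched, are shown by the 250 bases before their annotated start (RefSeq sequence, build GRCm38.p6, given 5′ to 3′ on the strand of the gene). The windows lie at chr19:3851523-3851772 (plus strand) for Chka, chr17:31637206-31637455 (minus) for Cbs, chr17:46729166-46729415 (minus) for Gnmt and chr16:32430671-32430920 (plus) for Pcyt1a. Pcyt1a has further annotated starts downstream, with windows from 32430770 and 32430980, and the most upstream is shown. Its sterol response element match is the same site in the window from 32430770, and the window from 32430980 holds none. Capitals mark a match on either strand to any motif named in the next paragraph.
Chka: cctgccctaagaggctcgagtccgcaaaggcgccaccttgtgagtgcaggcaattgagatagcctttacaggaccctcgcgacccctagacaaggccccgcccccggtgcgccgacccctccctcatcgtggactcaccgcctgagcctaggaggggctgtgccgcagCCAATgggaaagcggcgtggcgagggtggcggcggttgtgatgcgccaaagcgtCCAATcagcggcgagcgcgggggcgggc
Cbs: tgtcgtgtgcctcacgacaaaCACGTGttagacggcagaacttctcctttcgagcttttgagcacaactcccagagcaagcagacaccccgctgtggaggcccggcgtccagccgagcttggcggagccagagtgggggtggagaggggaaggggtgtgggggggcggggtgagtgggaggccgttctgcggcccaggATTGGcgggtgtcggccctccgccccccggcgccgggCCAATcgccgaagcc
Gnmt: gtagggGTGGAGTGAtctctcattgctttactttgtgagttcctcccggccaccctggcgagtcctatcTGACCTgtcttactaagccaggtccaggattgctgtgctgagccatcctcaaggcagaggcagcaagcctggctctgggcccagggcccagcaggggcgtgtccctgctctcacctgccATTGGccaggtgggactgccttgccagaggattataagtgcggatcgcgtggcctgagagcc
Pcyt1a: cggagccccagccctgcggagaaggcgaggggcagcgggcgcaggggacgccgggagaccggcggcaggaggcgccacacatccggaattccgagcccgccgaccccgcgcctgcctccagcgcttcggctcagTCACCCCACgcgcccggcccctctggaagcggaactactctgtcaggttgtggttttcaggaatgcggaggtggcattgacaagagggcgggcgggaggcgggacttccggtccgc

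Promoter windows were found for 8 of the 9 genes, in 11 windows of 300 bases (250 before and 50 after the start), and Mat1a had no entry. Where a gene had several windows, a match in any of them counted. The sterol response element TCACNCCAC, the type of site bound by SREBP, stood in 1.24% of 32851 mouse promoter windows and in those of Gnmt and Pcyt1a. CACGTG, the E-box that CLOCK and BMAL1 can bind, stood in 7.15% of windows, and Cbs was the 1 gene of the set with a match. The half-site AGGTCA, which nuclear receptors including the REV-ERBs can bind, stood in 16.3% of windows and in those of Bhmt, Gnmt, Ahcy and Pcyt1a. The longer form of this half-site with an AT-rich flank stood in 0.219% of windows and in none of the 11. CCAAT stood in 37.4% of windows and in those of Bhmt, Gnmt, Ahcy, Cbs, Mtr, Pemt and Chka. These are matches of letters, and binding was not measured.

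In Control hepatocytes the genes spanned a wide range of levels per transcript length. Mat1a was highest at 9006 ± 2343 RPKTM (SD, n = 12), followed by Bhmt at 4178 ± 1511, Gnmt at 2092 ± 396, Cbs at 1089 ± 253, Ahcy at 757 ± 170, Pemt at 514 ± 88.5, Pcyt1a at 285 ± 43.4, Chka at 215 ± 149 and Mtr at 60.2 ± 10.5. The ranges over libraries overlapped between all neighbours in this order and between some genes further apart, such as Cbs (628 at least) and Pemt (647 at most). Every Mtr library was below every Pcyt1a library (81.1 at most against 201 at least). Of the routes that methylate homocysteine again, Bhmt stood far above Mtr in every library.

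Chka, the first kinase of the choline route, had the widest swing over the day in Control hepatocytes. Its 3 Control libraries read 179, 94.7 and 118 RPKTM at ZT4, 69.0, 35.3 and 85.3 at ZT10, 199, 256 and 310 at ZT16, and 314, 509 and 415 at ZT22. The ZT10 libraries were the lowest and the ZT22 libraries the highest, with no overlap, and the mean rose 6.53-fold between them. In RevDKO the values were 552, 566 and 563 at ZT4, 480, 361 and 449 at ZT10, 461, 277 and 509 at ZT16, and 566, 532 and 452 at ZT22. The means at the 4 times lay closer together, and the RevDKO libraries at ZT4 and ZT10 stood above all 6 Control libraries of those times. RevScapTKO gave 523, 438 and 1411 at ZT4, 360, 429 and 387 at ZT10, 354, 336 and 548 at ZT16, and 431, 532 and 528 at ZT22. These lay near the RevDKO values, apart from 1 library of 1411 RPKTM at ZT4.

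**Figure D1:**
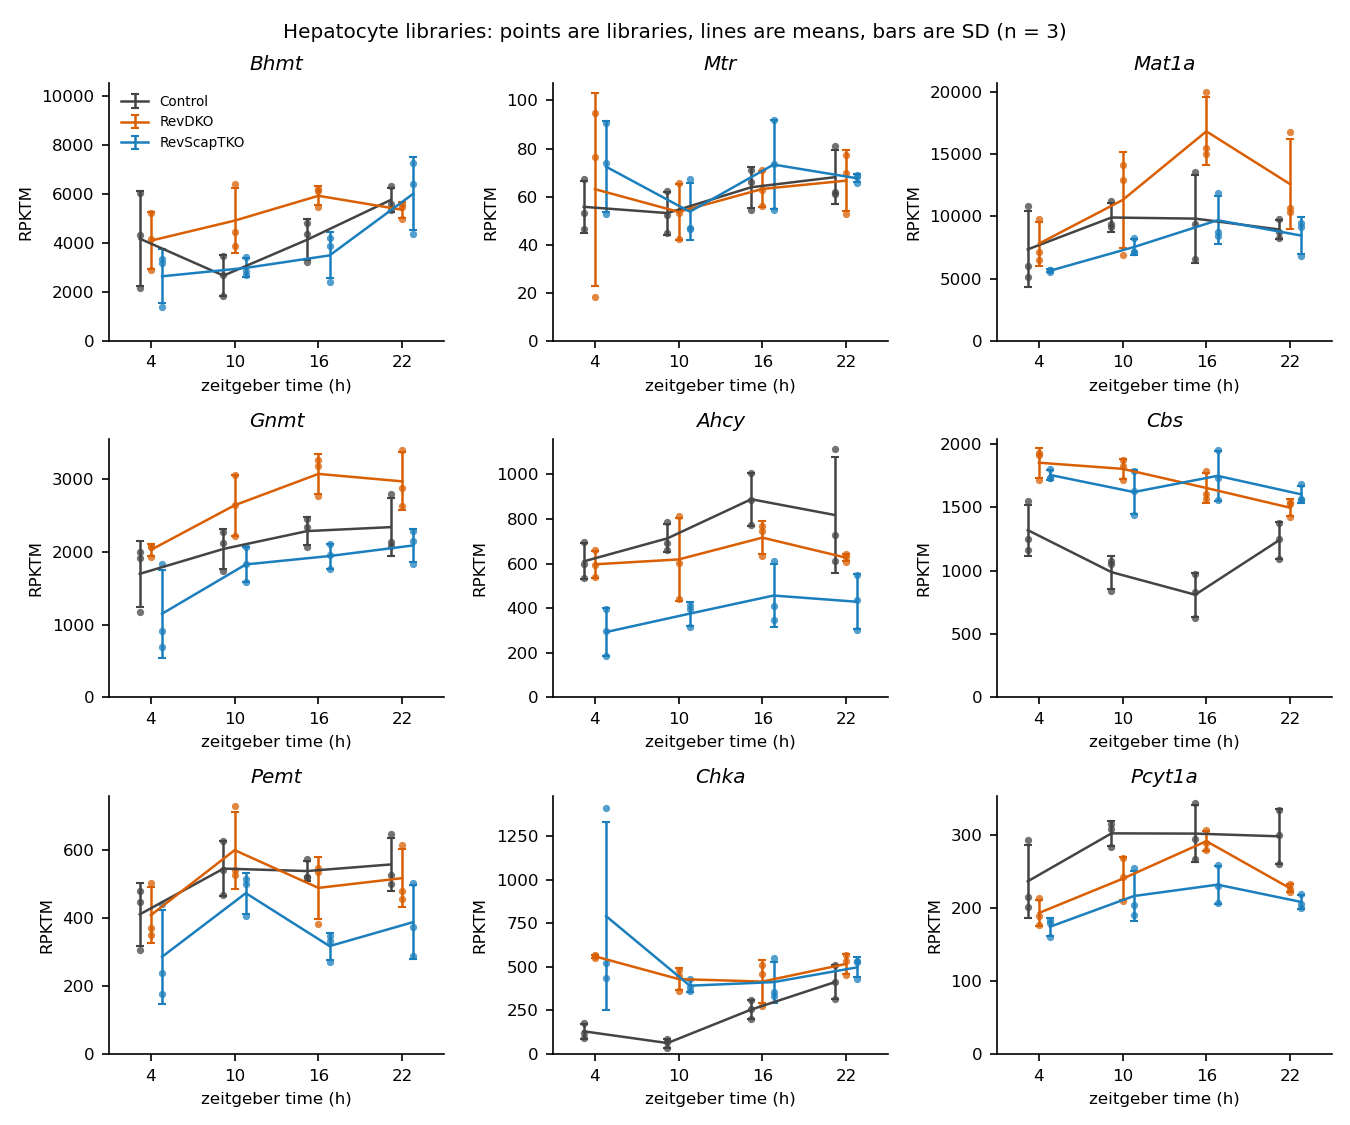
RPKTM (y axis, from 0) of the 9 genes in hepatocytes against zeitgeber time in hours (x axis) for Control, RevDKO and RevScapTKO. Points are libraries, lines join means and bars are SD (n = 3), and at ZT10 Chka lies at 35.3 to 85.3 RPKTM in Control, 361 to 480 in RevDKO and 360 to 429 in RevScapTKO.

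The mean level over the day answered whether loss of REV-ERBs in hepatocytes changed the pathway. On log2(RPKTM + 1), Chka was higher in RevDKO than in Control by 1.498 (SE 0.16, limma, Benjamini-Hochberg adjusted p = 8.20e-08), and Cbs by 0.67 (SE 0.077, adjusted p = 2.78e-07). Pcyt1a, the enzyme after Chka in the same route, was lower by a log2 difference of -0.26 (adjusted p = 0.0466). These 3 of 9 genes were called, while 4.43% of the 13326 genes tested were. The call of Pcyt1a was marginal, since it was lost on leaving out any 1 of 23 of the 36 libraries (8 of Control, 10 of RevDKO and 5 of RevScapTKO), with adjusted p as high as 0.0997.

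Cbs, which commits homocysteine to cysteine, was raised most at the times when Control was low. Control libraries read 1545, 1163 and 1249 RPKTM at ZT4, 1053, 1072 and 838 at ZT10, 628, 973 and 828 at ZT16, and 1089, 1249 and 1377 at ZT22. RevDKO libraries read 1911, 1926 and 1714, then 1714, 1870 and 1822, then 1567, 1784 and 1602, and lastly 1525, 1542 and 1419 at the same 4 times. RevDKO was above Control at each time without overlap. Of the 13326 genes, 818, 1062, 917 and 1077 stood higher without overlap at ZT4, ZT10, ZT16 and ZT22. How many did so at all 4 times was not counted. With all times pooled, Cbs overlapped between the genotypes, while 0.158% of all genes stood higher without overlap. For Cbs, 9 of the 12 RevDKO libraries exceeded the highest Control library of any time. At single times, the difference passed the test at ZT10 (log2 0.87, adjusted p = 0.00103) and ZT16 (1.05, adjusted p = 0.000239), but not at ZT4 (0.50, adjusted p = 0.184) or ZT22 (0.28, adjusted p = 0.687).

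For Chka the difference from Control was 2.14 on the log2 scale at ZT4 (adjusted p = 0.000234) and 2.83 at ZT10 (adjusted p = 9.12e-07). At ZT16 and ZT22 the log2 differences were 0.68 and 0.35, with adjusted p of 0.855 and 0.884, and libraries overlapped. Across all genes, 0.585% were called at ZT4, 1.2% at ZT10, 0.3% at ZT16 and 0.488% at ZT22, and Chka and Cbs were the members of the set called at any time in this comparison. At ZT22, where limma called none of the 9, 1 had an unadjusted p under 0.05.

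The other 6 genes did not pass for RevDKO against Control. Gnmt differed by 0.36 on the log2 scale (adjusted p = 0.0771), Mat1a by 0.39 (adjusted p = 0.118) and Bhmt by 0.35 (adjusted p = 0.265), all with a higher mean in RevDKO. Ahcy differed by -0.23 (adjusted p = 0.368) and Pemt by -0.03 (adjusted p = 0.931). Mtr had a log2 difference of -0.04 (adjusted p = 0.947) although its plain mean was slightly higher in RevDKO, 61.6 ± 19.5 against 60.2 ± 10.5 RPKTM.

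The comparison of RevScapTKO with RevDKO asked what the loss of Scap added to that of the REV-ERBs. Chka and Cbs did not pass the test, and Ahcy, Gnmt, Mat1a, Bhmt and Pemt were lower. RevScapTKO differed from RevDKO by 0.03 for Chka (95% interval -0.30 to 0.36) and by -0.01 for Cbs (-0.17 to 0.14), on the log2 scale. Ahcy was lower by a log2 difference of -0.76 (adjusted p = 4.86e-05), Gnmt by -0.66 (adjusted p = 0.000119), Mat1a by -0.58 (adjusted p = 0.00263), Bhmt by -0.52 (adjusted p = 0.0180) and Pemt by -0.50 (adjusted p = 0.00349). These 5 of 9 were called, all lower, against 26.2% of all genes called in either direction and 12.7% called lower. Pcyt1a (-0.19, adjusted p = 0.0682) and Mtr (0.17, adjusted p = 0.484) were not called.

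These 5 calls were lost when the macrophage marker level of the hepatocyte libraries entered the fit. That level itself differed with genotype, so the fit cannot separate the marker level from the genotype. All 14 macrophage markers were called higher in RevScapTKO than in RevDKO, with a median log2 difference of 1.04, as were 4 of 6 endothelial and 5 of 6 stellate markers. With the mean of the macrophage markers as a covariate, none of the 9 genes was called: Ahcy stood at -0.38 (adjusted p = 0.238), Gnmt at -0.36 (adjusted p = 0.253), Mat1a at -0.52 (adjusted p = 0.213), Bhmt at -0.28 (adjusted p = 0.695) and Pemt at -0.16 (adjusted p = 0.760). Under that covariate the count over all genes fell from 3498 to 335. In bulk libraries of isolated cells, fewer cells of a type and less RNA per cell cannot be told apart.

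**Figure D2:**
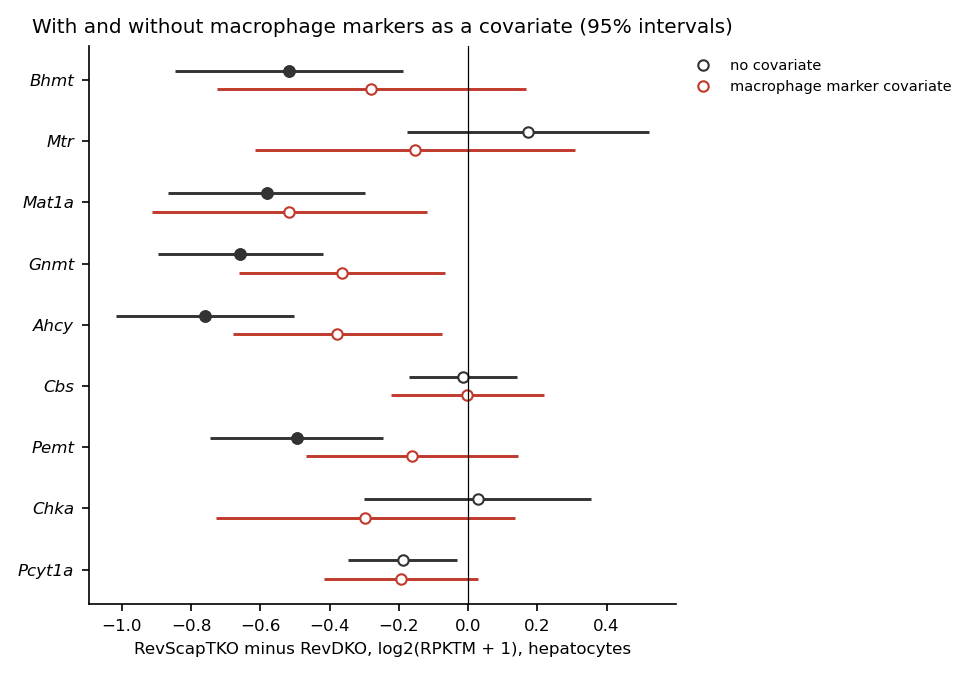
Difference between RevScapTKO and RevDKO hepatocytes in log2(RPKTM + 1) (x axis) for the 9 genes (y axis), without (black) and with (red) the mean macrophage marker level as a covariate. Points are estimates, bars are 95% intervals and filled points have an adjusted p under 0.05, and the 5 filled points are all without the covariate.

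Ahcy shows the size of the change in single libraries. RevDKO read 591, 661 and 538 RPKTM at ZT4, 441, 813 and 601 at ZT10, 633, 768 and 747 at ZT16, and 609, 643 and 628 at ZT22. RevScapTKO read 398, 296 and 185, then 416, 315 and 396, then 613, 411 and 346, and 437, 302 and 547. Of the 12 RevScapTKO libraries, 10 were below the lowest RevDKO library, and the 2 exceptions were 1 at ZT16 and 1 at ZT22.

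Gnmt, the glycine methyltransferase that disposes of surplus S-adenosylmethionine, had its lowest mean at ZT4 in Control (1699 RPKTM), RevDKO (2028) and RevScapTKO (1151). The RevScapTKO libraries at ZT4 read 1841, 915 and 696 RPKTM, against 1934, 2082 and 2070 in RevDKO and 1999, 1922 and 1176 in Control. All 3 were below every RevDKO library of that time, while they overlapped Control. Of the 13326 genes, 1623 were lower without overlap in RevScapTKO than in RevDKO at ZT4. At ZT4 the log2 difference from RevDKO was -0.94 for Gnmt (adjusted p = 0.0107) and -1.09 for Ahcy (adjusted p = 0.00677). These were the 2 members called at ZT4, where 9.28% of all genes were, and none was called at ZT10 (0.908% of all genes), ZT16 (1.37%) or ZT22 (2.35%). At those 3 times 3, 6 and 2 of the 9 had an unadjusted limma p under 0.05, as did 1691, 1607 and 2141 of the 13326 genes. With the macrophage covariate neither Gnmt nor Ahcy was called at ZT4. The 2 calls went to 1 without RevScapTKO ZT4 replicate 2 and to 0 without RevScapTKO ZT4 replicate 3.

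Mat1a, the source of hepatic S-adenosylmethionine, had a median of 9232 RPKTM in Control (5161 to 13560 over 12 libraries), 11825 in RevDKO (6461 to 19979) and 7720 in RevScapTKO (5512 to 11909). Bhmt had medians of 4331 (1818 to 6304), 5345 (2907 to 6395) and 3380 (1361 to 7273) RPKTM in the same order. For Pemt, which consumes the methyl groups, medians were 522 (307 to 647), 517 (352 to 731) and 361 (178 to 516) RPKTM. In all 3 genes the ranges of the genotypes overlapped, and the RevScapTKO median was the lowest.

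RevScapTKO was also compared with Control, which shares its libraries with the comparisons above. Here 6 of 9 genes were called, against 35.9% of all genes. Chka was higher by 1.53 (adjusted p = 1.14e-08) and Cbs by 0.66 (adjusted p = 8.59e-08), with 11 of 12 RevScapTKO libraries above the highest Control library for Cbs. Ahcy was lower by a log2 difference of -0.99 (adjusted p = 4.41e-07), Pemt by -0.53 (adjusted p = 0.00122), Pcyt1a by -0.45 (adjusted p = 4.35e-05) and Gnmt by -0.30 (adjusted p = 0.0444). Bhmt (-0.17), Mat1a (-0.19) and Mtr (0.13) had adjusted p of 0.433, 0.291 and 0.569. The call of Gnmt was lost on leaving out any 1 of 15 of the 36 libraries (7 of Control and 8 of RevScapTKO), with adjusted p as high as 0.113.

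All 14 macrophage markers were again higher in RevScapTKO (median log2 difference 1.21), with 5 of 6 endothelial and 5 of 6 stellate markers. With the macrophage covariate, Chka (1.18, adjusted p = 0.000543), Cbs (0.67, adjusted p = 0.000113), Ahcy (-0.58, adjusted p = 0.0191) and Pcyt1a (-0.45, adjusted p = 0.0111) kept their calls. Pemt did not (-0.17, adjusted p = 0.628), and the difference of Gnmt turned to 0.02 (adjusted p = 0.972). Over all genes, 761 were then called in place of 4789. Between RevDKO and Control limma called 0 of 14 macrophage, 0 of 6 endothelial and 0 of 6 stellate markers, with 0, 0 and 1 at an unadjusted p under 0.05. Sox9, the 1 cholangiocyte marker tested, was higher in RevDKO than in Control (1.02, adjusted p = 9.08e-07), at means of 34.5 and 16.8 RPKTM, and its part in the calls of that comparison was not tested. With the covariate the differences of Chka (1.473, adjusted p = 3.81e-08) and Cbs (0.68, adjusted p = 3.13e-07) stood as before, and Gnmt passed the test (0.38, adjusted p = 0.0252).

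By time, Ahcy was lower in RevScapTKO than in Control at all 4 times (log2 differences -1.12, -0.93, -0.99 and -0.93, adjusted p = 0.00318, 0.0285, 0.0206 and 0.0331). Chka was higher at ZT4 (2.44, adjusted p = 4.55e-06) and ZT10 (2.70, adjusted p = 6.37e-07), and Cbs at ZT10 (0.72, adjusted p = 0.00391) and ZT16 (1.13, adjusted p = 8.30e-06). Gnmt was lower at ZT4 (-0.65, adjusted p = 0.0493). Among all genes 18.9%, 4.35%, 3.24% and 3.62% were called at ZT4, ZT10, ZT16 and ZT22. These 9 calls fell to 4 with the macrophage covariate and to 5 when only these 2 genotypes were fitted.

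**Figure D3:**
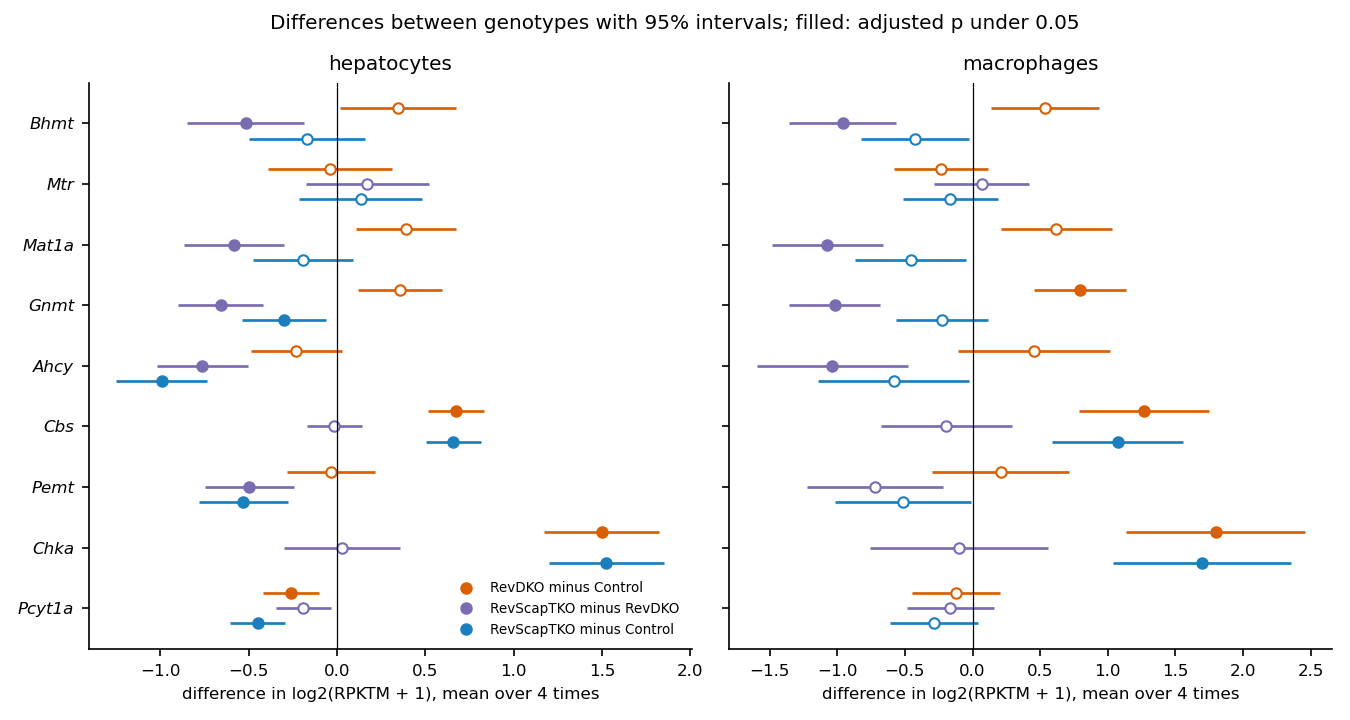
Differences between genotypes in log2(RPKTM + 1), averaged over the 4 times (x axis), for the 9 genes (y axis) in hepatocytes and in macrophages. Points are limma estimates, bars are 95% intervals, filled points have an adjusted p under 0.05, and in hepatocytes Chka lies at 1.498 and 1.53 in both comparisons with Control and at 0.03 between RevScapTKO and RevDKO.

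Whether the daily pattern itself differed was asked by a test of the 24 h cosine and sine terms. Chka differed between RevDKO and Control (peak-to-trough size of the difference 2.88 on the log2 scale, adjusted p = 0.0038), as 1 of 27 genes called (0.203%). It also differed between RevScapTKO and Control (2.984, adjusted p = 0.00263), as 1 of 25 genes (0.188%). Leaving out any single library, adjusted p for Chka ranged from 0.000296 to 0.0165 and from 0.00072 to 0.0115. The counts over all genes then ranged from 15 to 33 and from 13 to 42. For Cbs the same tests gave adjusted p of 0.396 and 0.416. Between RevScapTKO and RevDKO limma called 0 of all genes, with 674 at an unadjusted p under 0.05, and 0 of the 9 members had one.

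Within Control hepatocytes the cosine fit of Chka peaked at ZT20.7 with a peak-to-trough size of 2.92 (adjusted p = 2.97e-06), and that of Cbs peaked at ZT2.36 (0.79, adjusted p = 0.00396), where 8.29% of all genes were called. Neither was called in RevDKO (4.08% of all genes) or RevScapTKO (0.683%). In RevDKO the size was 0.55 for Chka (adjusted p = 0.499) and 0.32 for Cbs (adjusted p = 0.379). In RevScapTKO it was 0.84 (adjusted p = 0.266) and 0.02 (adjusted p = 0.997).

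JTK_CYCLE, a rank test of rhythm that the study applied with each series entered 2 times, gave calls in each genotype apart. It called Bhmt, Cbs and Chka in Control hepatocytes (23.3% of all transcripts over the filter were called), Mat1a, Gnmt and Pcyt1a in RevDKO (22.8%), and Bhmt and Mat1a in RevScapTKO (13.7%). Bhmt was highest at ZT22 and lowest at ZT10 in Control (2.16-fold), and Mat1a was highest at ZT16 and lowest at ZT4 in RevDKO (2.16-fold) and RevScapTKO (1.721-fold). Entering a series again makes p smaller without new data. With each series entered once, the calls left were Chka in Control (2.46% of all transcripts) and Pcyt1a in RevDKO (2.36%), with none in RevScapTKO (0.702%). A call in one genotype and not in another is no test of a difference, and of the 9 genes Chka alone passed the test of a changed pattern given above.

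Other genes of the same pathways were counted from lists. Of 23 further genes of methionine and one-carbon metabolism, 1 was higher and 1 lower in RevDKO than in Control hepatocytes. Over all genes, 4.43% were called in this comparison. Chdh, an enzyme on the way from choline to betaine for Bhmt, was lower (-0.45, adjusted p = 0.00147). Adk, the adenosine kinase that clears the adenosine released by Ahcy, was higher (0.30, adjusted p = 0.0358). The median over the 23 was 0.08.

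Between RevScapTKO and RevDKO, 3 of these 23 were higher and 11 lower, with a median of -0.25. Over all genes, 26.2% were called in either direction and 12.7% lower. The largest were Gatm (0.87, adjusted p = 0.000389), the first enzyme of creatine synthesis, Aldh1l1 (-0.74, adjusted p = 9.37e-07), a folate dehydrogenase, and Nnmt (-0.70, adjusted p = 0.00994), which methylates nicotinamide. Between RevScapTKO and Control 2 were higher and 7 lower (median -0.07), led by Gatm (0.80, adjusted p = 0.000521), Mthfs (-0.71, adjusted p = 0.00300) and Aldh1l1 (-0.55, adjusted p = 4.53e-05). Over all genes, 35.9% were called in that comparison.

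Of 27 further phospholipid genes, 24 were tested in hepatocytes. The share of all genes called was 4.43% in RevDKO against Control, 26.2% in RevScapTKO against RevDKO and 35.9% in RevScapTKO against Control. In RevDKO against Control 2 were higher and 1 lower (median 0.0014). Pctp, a carrier protein of phosphatidylcholine, was lower (-1.67, adjusted p = 9.73e-07) at 161 RPKTM for Control, 48.5 for RevDKO and 65.4 for RevScapTKO. Lpin1, a phosphatidate phosphatase, was higher (1.15, adjusted p = 0.0290), as was Pnpla7 (0.53, adjusted p = 0.000919), a lysophospholipase. Against RevDKO, RevScapTKO had 3 higher and 6 lower (median -0.15), with Lpcat3, which remodels phosphatidylcholine with unsaturated acyl chains, at -1.27 (adjusted p = 1.11e-12), Lpin1 at -0.90 (adjusted p = 0.0343) and Abcb4, the exporter of phosphatidylcholine into bile, at 0.89 (adjusted p = 0.000138). Against Control it had 3 higher and 9 lower (median -0.01), led by Lpcat3 (-1.50, adjusted p = 1.43e-14), Pctp (-1.24, adjusted p = 2.59e-05) and Abcb4 (0.98, adjusted p = 2.33e-05). The macrophage marker levels given above move with both comparisons of RevScapTKO for these lists as well, and their part in these counts was not tested.

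Levels of the 9 genes were compared with those of every other gene across the 36 hepatocyte libraries, which share genotypes and normalisation, as a description. Chka was most like Arntl, which encodes the clock activator BMAL1 (Pearson r = 0.91, log2 scale), and Cbs most like Loxl4 (r = 0.83). The nearest genes of the others were Bhmt2, the neighbouring relative of Bhmt (r = 0.78), Got1 for Mat1a (r = 0.85), Serpina1d for Gnmt (r = 0.85), Sar1b for Pemt (r = 0.92), Ggps1 for Mtr (r = 0.77) and Fau for Pcyt1a (r = 0.82). Ahcy was nearest to the predicted gene Gm4737 (r = 0.92), and whether the 2 share reads was not tested. Among the members themselves, Gnmt went with Mat1a (r = 0.74) and Pemt (r = 0.74), Cbs with Chka (r = 0.61), and Cbs against Ahcy (r = -0.50).

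The gene positions in the files (build mm9) were chr13 94386846-94407713 for Bhmt, chr13 12278807-12350380 for Mtr, chr14 41918322-41937717 for Mat1a, chr17 46862613-46866114 for Gnmt, chr2 154885048-154900233 for Ahcy, chr17 31749568-31774150 for Cbs, chr11 59784116-59850507 for Pemt, chr19 3851773-3894369 for Chka and chr16 32431106-32475151 for Pcyt1a. Values cover all exons of a transcript, untranslated regions included. Where a gene had several transcripts, these correlated with the chosen one at r of 0.991 or more in the hepatocyte table of Control, RevDKO and RevScapTKO and of 0.9745 or more in ScapKO hepatocytes, so they cannot be told apart in these counts.

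In the liver macrophage libraries the question was whether loss of REV-ERBs in hepatocytes reached their neighbours. The libraries held hepatocyte transcripts, as given above, and Mat1a, a hepatocyte gene, stood at 991 ± 402 RPKTM (SD, n = 12) in Control macrophages against 9006 in hepatocytes (tables normalised apart). What part of the values of the 9 genes came from hepatocyte RNA was not tested. Fits with a hepatocyte marker covariate kept the calls at the mean level, and fits without 3 libraries are given below. The covariate cannot remove a genotype difference carried in by hepatocyte RNA, since its mean level was alike in the genotypes (log2 11.56 in Control, 11.59 in RevDKO and 11.56 in RevScapTKO). Limma called 0 of 9 hepatocyte and 0 of 14 macrophage markers in each of the 3 comparisons of these libraries, with up to 3 and up to 1 at an unadjusted p under 0.05. The summed macrophage markers had medians of 20464 RPKTM in Control (3850 to 43531), 10454 in RevDKO (4515 to 36055) and 11234 in RevScapTKO (5688 to 35471). Of 6 stellate markers, Col1a1 and Col3a1 were higher in RevScapTKO than in Control (1.89 and 1.21, adjusted p = 0.000605 and 0.000419) and than in RevDKO (1.58 and 0.88, adjusted p = 0.00501 and 0.0146). Sox9 was higher in RevScapTKO than in Control (1.91, adjusted p = 0.0154). The part of these markers in the calls of RevScapTKO was not tested.

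Chka and Cbs were higher in RevDKO than in Control here as well. Chka read 37.0, 42.0 and 23.1 RPKTM at ZT4, 14.9, 8.14 and 16.3 at ZT10, 24.7, 49.5 and 72.6 at ZT16, and 17.6, 6.76 and 59.8 at ZT22 in Control. In RevDKO it read 62.5, 97.7 and 167 at ZT4, 86.3, 76.0 and 85.6 at ZT10, 108, 75.05 and 164 at ZT16, and 59.9, 89.2 and 54.4 at ZT22. The groups stood apart at ZT4, ZT10 and ZT16, as 7.06%, 18.5% and 15.8% of all genes did, and overlapped at ZT22.

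The mean log2 difference of Chka between RevDKO and Control macrophage libraries was 1.80 (SE 0.32, adjusted p = 0.00258), that of Cbs was 1.27 (SE 0.24, adjusted p = 0.00415), and that of Gnmt was 0.79 (SE 0.17, adjusted p = 0.0134). These 3 of 9 genes were called against 0.574% of the 13947 genes tested, or 80 genes, a count that went to 474 without Control ZT22 replicate 3, 51 without RevDKO ZT10 replicate 1 and 48 without RevDKO ZT22 replicate 2. Chka, Cbs and Gnmt were the members called with any 1 of the 36 libraries left out. Cbs had medians of 260 RPKTM in Control (78.8 to 440), 505 in RevDKO (318 to 726) and 455 in RevScapTKO (186 to 777), and 8 of the 12 RevDKO libraries exceeded the highest Control library. Gnmt had medians of 319 (143 to 582), 580 (398 to 717) and 278 (145 to 578).

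**Figure D4:**
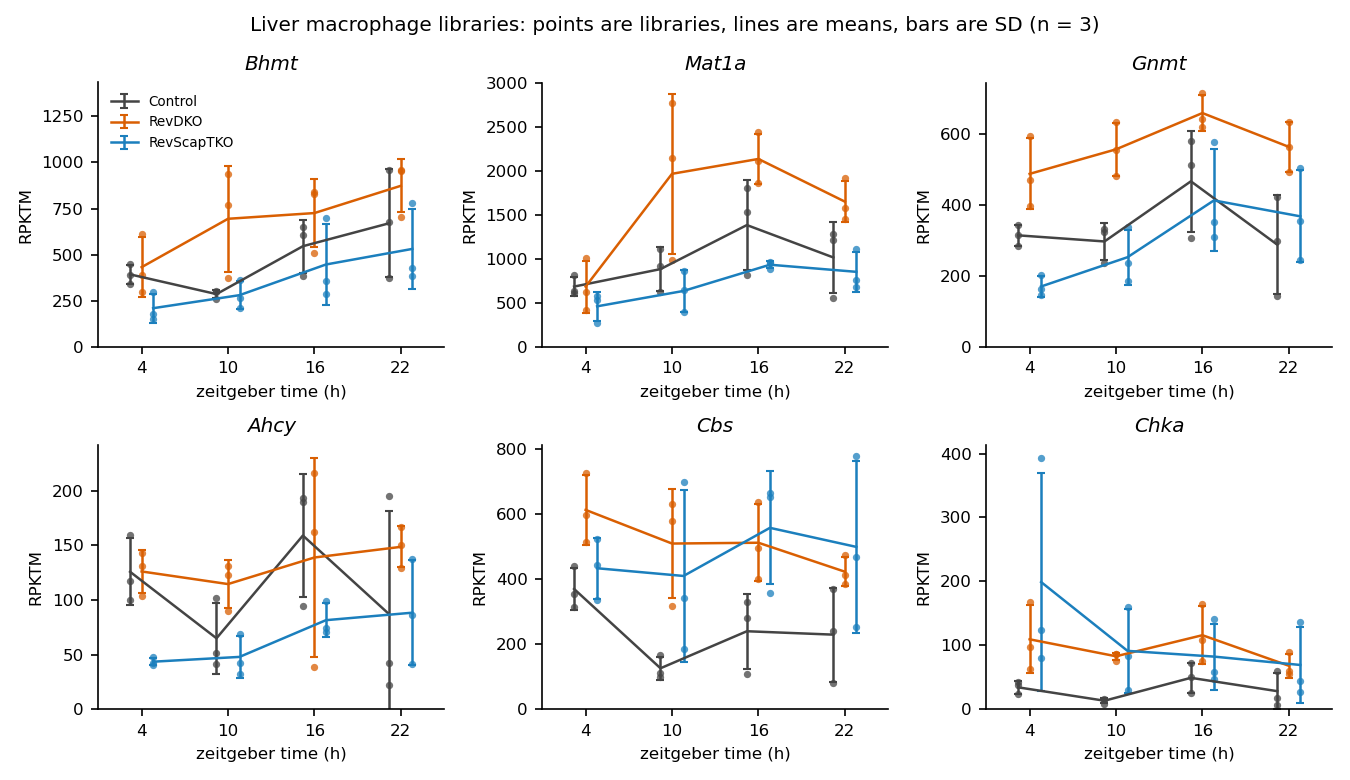
RPKTM (y axis, from 0) of 6 of the 9 genes in liver macrophage libraries against zeitgeber time in hours (x axis) for Control, RevDKO and RevScapTKO. Points are libraries, lines join means and bars are SD (n = 3), and Gnmt in RevDKO (398 to 717 RPKTM) stands above RevScapTKO at each time on average.

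RevScapTKO macrophage libraries differed from RevDKO by -1.08 for Mat1a (adjusted p = 0.000937), -1.04 for Ahcy (adjusted p = 0.0288), -1.02 for Gnmt (adjusted p = 0.000143) and -0.96 for Bhmt (adjusted p = 0.00253). These 4 of 9 were called, all lower, against 3.0% of all genes in either direction and 1.78% lower. For Gnmt, 10 of the 12 RevScapTKO libraries were below the lowest RevDKO library. The Ahcy call was lost on leaving out any 1 of 5 of the 36 libraries (RevDKO ZT16 replicate 1 and ZT22 replicate 2, RevScapTKO ZT10 replicate 2, ZT16 replicate 3 and ZT22 replicate 2), with adjusted p as high as 0.0638. Over all genes, 419 were called, and 1179 without RevDKO ZT16 replicate 3. Pemt had a log2 difference of -0.72 (adjusted p = 0.113). For Chka the log2 difference was -0.10 (95% interval -0.76 to 0.56) although the plain mean was higher in RevScapTKO, 110 ± 100 against 93.8 ± 37.0 RPKTM, with 1 library at 394.

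Against Control, RevScapTKO macrophage libraries were higher in Chka (1.70, adjusted p = 0.00109) and Cbs (1.07, adjusted p = 0.00564), 2 of 9 genes where 3.76% of all genes were called. These 524 genes became 964 without Control ZT22 replicate 3 and 861 without RevScapTKO ZT10 replicate 1. Without the 3 libraries high in hepatocyte markers (Control ZT16 replicate 1, Control ZT22 replicate 1 and RevScapTKO ZT22 replicate 3), Chka was still called (1.41, adjusted p = 0.0149) and Cbs was not (0.69, adjusted p = 0.0547). Without the same libraries, the 3 calls of RevDKO against Control (Chka 1.674, Cbs 0.99, Gnmt 0.62, adjusted p = 0.0101, 0.0101 and 0.0358) and the 4 of RevScapTKO against RevDKO remained. By time, the 1 call in macrophages was Gnmt at ZT4 between RevScapTKO and RevDKO (-1.51, adjusted p = 0.0447), a time at which 0.172% of all genes were called. That call was lost with no filter, with every transcript tested, and on leaving out any 1 of 23 of the 36 libraries (7 of Control, 10 of RevDKO and 6 of RevScapTKO). No gene of the table (0.0%) was called by limma for a changed daily pattern in macrophages, and of the 9 members 1, 1 and 0 had an unadjusted p under 0.05 in RevDKO against Control, RevScapTKO against RevDKO and RevScapTKO against Control.

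In macrophages JTK_CYCLE called Bhmt and Mat1a in Control (12.5% of all transcripts), Mat1a, Pemt and Pcyt1a in RevDKO (19.9%), Bhmt, Mat1a, Gnmt, Ahcy and Pemt in RevScapTKO (9.86%) and Bhmt and Chka in ScapKO (14.4%). Summed hepatocyte markers in the ScapKO macrophage libraries were 15638 to 119970 RPKTM. ZT22 replicate 2 was the highest in these and the lowest in summed macrophage markers (25801 RPKTM). Chka in ScapKO macrophages spanned 83.2 to 626 RPKTM at ZT22. With each series entered once none of the 9 was called in any of the 4 genotypes, where the share of all transcripts called was 0.479% in Control, 0.841% in RevDKO, 0.46% in RevScapTKO and 1.05% in ScapKO. The limma cosine fit called Mat1a and Pemt in RevDKO macrophages, where 353 of 13947 genes were called. It called none of the 9 in Control and RevScapTKO, where 7 and 11 of all genes were called, or in ScapKO. Of the further methionine and one-carbon genes, 0 of 23 were called by limma in RevDKO against Control (9 at an unadjusted p under 0.05) and 0 of 23 in RevScapTKO against Control (2 at an unadjusted p under 0.05). Nnmt (-1.10, adjusted p = 0.0191) and Aldh1l1 (-0.92, adjusted p = 0.00299) were lower in RevScapTKO than in RevDKO. The share of all genes called was 0.574% in RevDKO against Control, 3.0% in RevScapTKO against RevDKO and 3.76% in RevScapTKO against Control. Of 25 phospholipid genes tested, 1 was called in each comparison, Pctp (-1.35, adjusted p = 0.0305) in RevDKO against Control and Lpcat3 in RevScapTKO against RevDKO (-0.92, adjusted p = 0.00214) and against Control (-0.85, adjusted p = 0.00464).

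ScapKO hepatocytes, which keep the REV-ERB genes, are given without a comparison. Chka read 420, 124 and 265 RPKTM at ZT4, 65.0, 75.5 and 53.0 at ZT10, 372, 271 and 252 at ZT16, and 348, 808 and 417 at ZT22. The 3 ZT10 libraries were below all 9 others, and the mean at ZT22 was 8.13 times that at ZT10, or 5.93 times without ZT22 replicate 2, the library high in Scap. Cbs fell from 4180, 3354 and 3317 RPKTM at ZT4 to 2100, 1685 and 1953 at ZT16, without overlap. The library with Xist, ZT16 replicate 3, gave 252 RPKTM for Chka and 1953 for Cbs, close to the other 2 of its time.

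Means over the 12 ScapKO hepatocyte libraries were 18236 ± 4799 RPKTM for Mat1a, 7309 ± 3821 for Bhmt, 4764 ± 711 for Gnmt, 2502 ± 752 for Cbs, 2091 ± 562 for Ahcy, 1034 ± 204 for Pemt, 606 ± 110 for Pcyt1a, 289 ± 212 for Chka and 74.6 ± 19.7 for Mtr. JTK_CYCLE called Bhmt, Mat1a, Ahcy, Cbs and Chka there (14.2% of all transcripts), and Mat1a and Chka with each series entered once (1.88%).

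**Figure D5:**
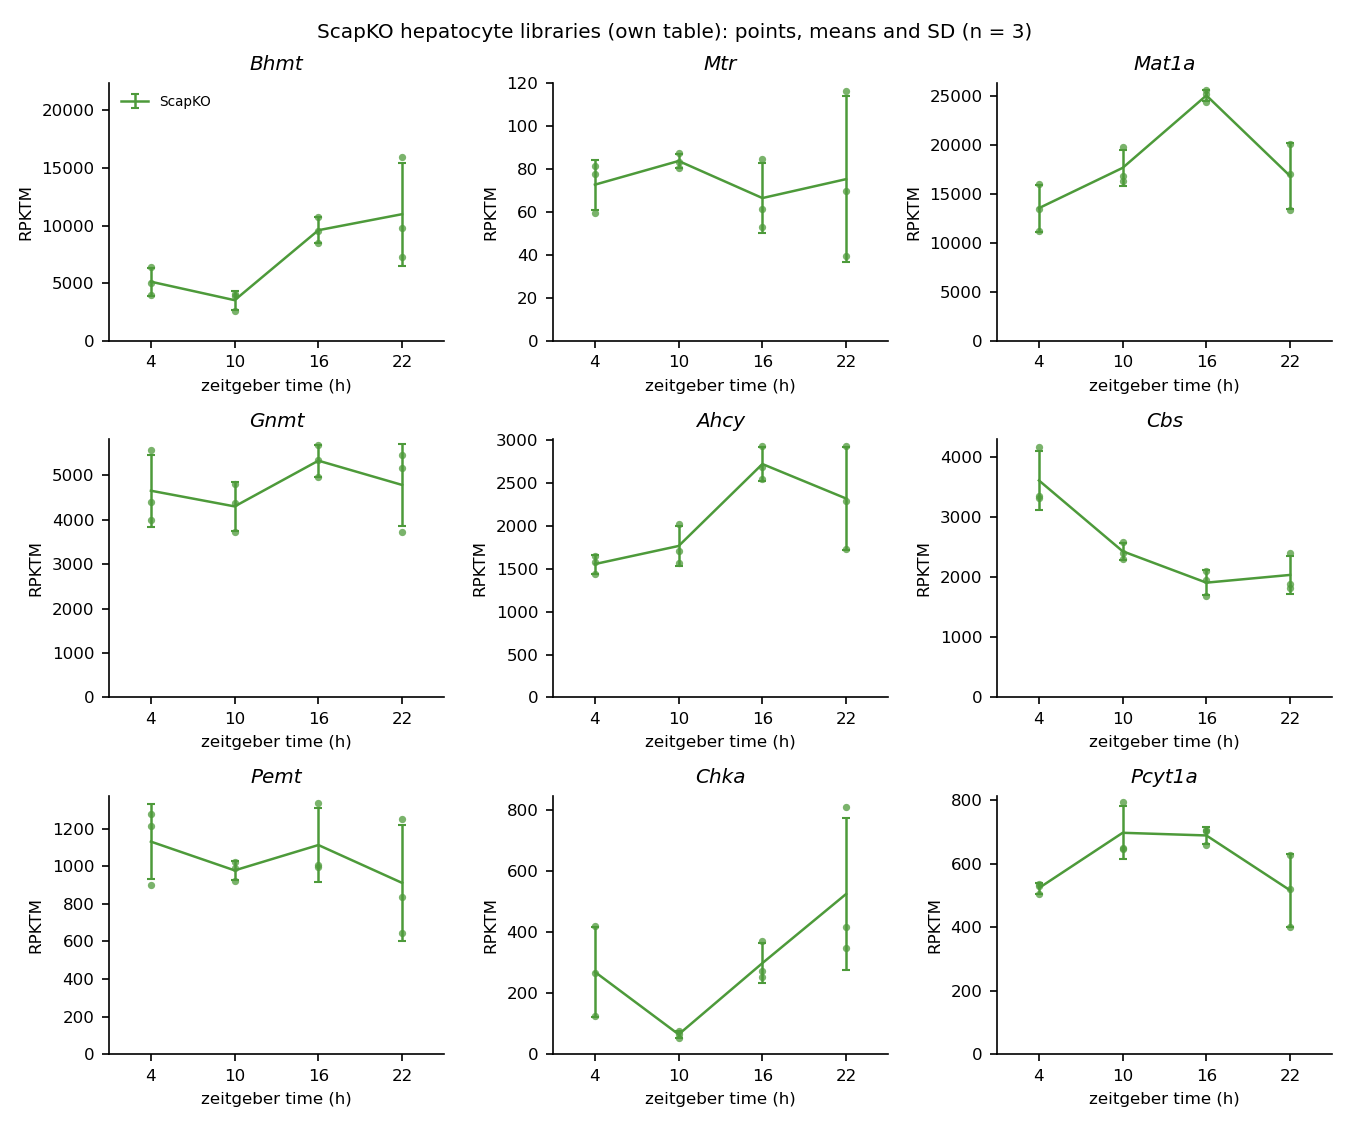
RPKTM (y axis, from 0) of the 9 genes in ScapKO hepatocytes, from their own table, against zeitgeber time in hours (x axis). Points are libraries, lines join means and bars are SD (n = 3), and Chka is lowest at ZT10 with 53.0 to 75.5 RPKTM.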

How the data were processed

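Per the labels and the study's methods, the authors depleted ribosomal RNA, made stranded libraries, aligned reads with STAR to mm9 and used HOMER to count over RefSeq transcripts. Versions of these tools, and whether counting used strand, are not given in the sources used here. The deposited values are RPKM scaled by 10 (RPKTM) and quantile normalised by the authors within each of 4 tables of 42322 transcripts. Depth is therefore unknown, no interval that needs it is given, a change shared by most genes would be hidden, and the spread between the 3 libraries of a group sets the precision. The limma p-values weigh a difference against the spread between libraries, estimated over the groups of a table and moderated across genes. Those of JTK_CYCLE come from the ranks of the values in a series.

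For each symbol the transcript with the highest mean was kept. Genes with at least 3 libraries over 5 RPKTM were tested by limma 3.58.1 (R 4.3.3, trend, moderated) on log2(RPKTM + 1), with 1 mean for each genotype and time and p-values adjusted by Benjamini-Hochberg over all genes. A fold change on this scale understates the change of low genes. Contrasts were the mean over the 4 times, each time, and the 24 h cosine and sine terms (F test). Rhythm within a genotype was tested over every transcript with at least 2 libraries over 5 RPKTM by JTK_CYCLE, written anew in Python 3.11.15 with the null of time points as groups, with the series entered 2 times, a highest to lowest ratio over 1.5 and a best period of 24 h. A gene counts as called at an adjusted p under 0.05; that of JTK_CYCLE is adjusted over the patterns tried for a transcript and not over transcripts. In simulated data for RevDKO against Control (13326 genes in hepatocytes, 13947 in macrophages), shifts of 0.5 on the log2 scale were called in 42% and 8% of genes, rises of 1 in 88% and 30%, falls of 1 in 92% and 44%, and shifts of 2 in 100% and 88%.

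The genes named are the 9 members, the up to 3 (hepatocytes) or 2 (macrophages) called genes of each list with the largest difference, the gene nearest to each member, and the targeted genes. Members and lists were chosen with earlier results of these data known. A gene of the methionine and one-carbon list is not reported here and was left out of the counts of that list. Promoter windows came from RefSeq (GRCm38.p6), another build than the files, so none of the files' positions was read from them. Alternatives were other pseudocounts (0.1 and 10), no filter, every transcript, 2 genotypes alone, a marker covariate, a replicate block, each library left out and other settings of the rhythm test.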

Additional observations from a re-analysis of the deposited data

Results flagged for a closer look

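The daily pattern of Chka in hepatocytes differed between genotypes by the test of the difference itself. For RevDKO against Control the adjusted p was 0.0038, and for RevScapTKO against Control it was 0.00263. Both comparisons use the same 12 Control libraries. In the fits with each of the 36 libraries left out in turn, both stayed under the threshold.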

How the results depend on the processing

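Depth is unknown and limits what low genes such as Mtr can show. Counts below are of the 9 genes. With the macrophage marker covariate, the mean level of RevScapTKO against RevDKO in hepatocytes gave 0 calls (5 without), the levels at each time gave 0 (2 without), and RevScapTKO against Control at each time gave 4 (9 without). The same covariate turned the log2 differences of Bhmt (0.086), Gnmt (0.017) and Mtr (-0.22) against Control and of Chka (-0.30) and Mtr (-0.15) against RevDKO. Fitting only 2 genotypes gave 5 calls at single times for RevScapTKO against Control in hepatocytes. Deviations of same-numbered libraries had a median correlation of 0.048 in hepatocytes (-0.145 to 0.280, 13 of 36 pairs over 0.1) and 0.088 in macrophages (-0.199 to 0.372, 15 of 36), against -0.029 and -0.046 (7 of 72 pairs in each) for libraries of other numbers. Same-numbered libraries were thus more alike by the median. The main fits left the number out, and these correlations do not settle whether the numbers mark pairs. With the replicate number as a block, Pcyt1a in RevDKO against Control had an adjusted p of 0.0502, single times in macrophages gave 2 calls in each of RevDKO against Control (0 without), RevScapTKO against Control (0 without) and RevScapTKO against RevDKO (1 without), and all genes called at the mean level in macrophages went from 80 to 167 and from 524 to 836 in the comparisons with Control. The last of the macrophage comparisons at single times gave 0 with every transcript or with no filter, and RevScapTKO against Control gave 1 with the hepatocyte marker covariate.

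Leaving out the 3 macrophage libraries high in hepatocyte markers, a setting chosen after seeing the data, gave 1 call at the mean level for RevScapTKO against Control (2 with them), 1 at single times for RevDKO against Control and 3 for RevScapTKO against RevDKO, and turned Pemt in RevDKO against Control to -0.068. Rhythm calls with the series entered once were 1, 1, 0 and 2 in hepatocytes of Control, RevDKO, RevScapTKO and ScapKO (3, 3, 2 and 5 when entered 2 times) and 0 in macrophages of all 4 (2, 3, 5 and 2). Without the minimum ratio they were 5 in Control and 6 in RevDKO hepatocytes. A null over tied pattern values, added after both sets of calls had been seen, gave 4 in RevScapTKO hepatocytes and counts within 1.5 times of the others. The limma cosine gave 1 in RevDKO and 0 in RevScapTKO hepatocytes. In macrophages it gave 2 in RevDKO and 0 in Control, RevScapTKO and ScapKO.

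With single libraries left out, calls at the mean level ranged from 2 to 4 (RevDKO against Control), 5 to 6 (RevScapTKO against RevDKO) and 5 to 6 (RevScapTKO against Control) in hepatocytes, and were 3, 3 to 4 and 2 in macrophages. At single times they were 4, 0 to 3 and 6 to 13, and 0 to 4, 0 to 1 and 0 to 1. Rhythm calls ranged from 3 to 4, 1 to 4, 1 to 5 and 5 to 6 in hepatocytes and from 1 to 4, 2 to 4, 4 to 6 and 1 to 6 in macrophages. Uncalled values changed sign for Mtr (-0.15 to 0.14) and Pemt (-0.083 to 0.0075) in RevDKO against Control and for Cbs (-0.036 to 0.0055), Chka (-0.10 to 0.11) and Mtr (-0.0092 to 0.28) in RevScapTKO against RevDKO in hepatocytes, and for Chka (-0.26 to 0.062) and Mtr (-0.013 to 0.12) in the latter in macrophages.

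Over all genes, testing every transcript called 1086, 6791 and 9197 in hepatocytes, and 652 and 963 in the comparisons of RevScapTKO in macrophages (419 and 524 otherwise). In macrophages, RevDKO against Control gave 41 with no filter, 49 with a pseudocount of 0.1 and 50 without the 3 libraries. For the daily pattern in hepatocytes, 2 genotypes alone gave 47 and 11 in place of 27 and 25, and RevScapTKO against Control gave 56 with every transcript and 16 with no filter. The cause of these shifts was not tested.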
